A study of Mus musculus with 18 samples.

Results

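The genes described here are 55 mouse genes that encode chromatin regulators: histone methyltransferases and demethylases, acetyltransferases and deacetylases, the enzymes of DNA methylation, and nucleosome remodellers. The list names enzymes and complex subunits, and it was drawn up with earlier results of these data known. They are 55 of 21627 protein-coding genes on chromosomes 1 to 19 and X. For each gene, the percent and the kilobases (kb) of the annotated gene body lying under peaks of dimethylated lysine 79 of histone H3 (H3K79me2) were measured in each of 9 libraries made by chromatin immunoprecipitation and sequencing (ChIP-seq).

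H3K79me2 is laid down by DOT1L, a methyltransferase that acts within the globular core of the nucleosome and not on a histone tail. The mark is found over transcribed genes, usually as a domain that begins near the start site and thins towards the 3′ end. The regulators listed here write, erase or read other marks, or move nucleosomes, and many of them act in the choice between T helper cell fates, where naive CD4 T cells become Th1 cells (makers of interferon gamma) or Th2 cells (makers of IL-4 and IL-13).

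Naive cells (3 libraries) were CD4+ T cells taken straight from spleens of WT mice and sorted as CD44- CD62L+. Th1 cells (3 libraries) were enriched CD4+ T cells kept for 4 days on plate-bound anti-CD28 and anti-CD3 under IL-12, IL-2 and anti-IL-4, then sorted for YFP from mice with an IFNg-YFP reporter allele. Th2 cells (3 libraries) had 4 days on the same antibodies with anti-IFNg, IL-2 and IL-4, then a sort for AmCyan or dsRed from 4C13R reporter mice (IL-4 AmCyan, IL-13 dsRed). The labels give the genotype of each library as WT, and 2 µg of antibody and fixation in 0.6% formaldehyde for 10 min were used throughout. Input libraries, 3 per cell type, accompany them and entered no test. Activation, culture, reporter allele and sort all differ between naive and polarised cells, so they cannot be told apart here. Whether the 3 libraries of a cell type stem from different mice is not stated, and the p-values then reflect only library to library spread, which may be technical.

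The lists do not give read depth. The summed length of the genome under peaks was 280 ± 4.68 Mb for naive libraries, 226 ± 12.2 Mb for Th1 and 240 ± 8.93 Mb for Th2 (SD, n = 3 each). Both polarised groups lay below the naive one without overlap (2-sided exact permutation p = 0.1, the smallest that 3 libraries against 3 can give). A shorter covered length therefore went with both polarised groups, and each difference for a single gene is read against the same measure over 11597 genes whose values were not identical in all 9 libraries. In bulk libraries, a domain carried by fewer cells and a thinner domain in each cell cannot be told apart. The T cell genes Cd3e, Lat and Thy1 were fully covered in each group. The cytokine genes differed between the polarised groups: Ifng had a mean coverage of 0% in naive, 100% in Th1 and 2.77% in Th2 libraries, Il4 of 0, 23.0 and 100%, Il13 of 0, 17.6 and 100% and Il5 of 0, 0 and 92.8%. Other lineage genes were covered in both. The Th1 regulator gene Tbx21 had no coverage in naive cells and nearly full coverage in all 6 polarised libraries. Cxcr3 had 0, 90.9 and 61.8%, Il12rb2 29.3, 96.4 and 70.7%, and the Th2 regulator gene Gata3 75.3, 59.7 and 97.8%. Markers of other cells were mostly at 0. Of the B cell genes reported, Ms4a1, Pax5 and Blk had no coverage in any library and Cd79a was fully covered in all. Of 5 myeloid genes, Adgre1, Cd14, Csf1r and Lyz2 were at 0 throughout (summed percent 7.22 to 10.5, 1.35 to 1.51 and 0). Of 3 NK cell genes, Ncr1 was at 0 throughout, and the list summed to 100, 39.8 to 55.4 and 79 to 100, nearly all of it Tyrobp. Cd8a and Cd8b1, which mark CD8 T cells, were both fully covered in the naive libraries (summed percent 200), against 7.55 to 11.9 in Th1 and 24.8 to 39.2 in Th2 libraries. Cd79b, a B cell gene, had 54.3 ± 25.9% in naive cells and 0 in both others. These genes moved with the naive to polarised difference, as many of the regulators below did, and their part in the results was not tested.

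Promoter sequences from RefSeq (GRCm38.p6, the assembly of mm10), which run from 250 bases before to 50 after the start of a gene, were matched for 41 of the 55 genes. The promoters of 5 genes are shown because they bracket the patterns described below. Ezh1, Kdm4a and Kdm5b had the most reduced coverage among genes with an entry in the lists of Polycomb genes and demethylases, Tet2 had the largest positive difference, and Hdac9 had no peak at all. Capitals mark CpG dinucleotides, and each sequence reads 5′ to 3′ on the strand of the gene.
Ezh1 (chr11:101226414-101226713, minus strand): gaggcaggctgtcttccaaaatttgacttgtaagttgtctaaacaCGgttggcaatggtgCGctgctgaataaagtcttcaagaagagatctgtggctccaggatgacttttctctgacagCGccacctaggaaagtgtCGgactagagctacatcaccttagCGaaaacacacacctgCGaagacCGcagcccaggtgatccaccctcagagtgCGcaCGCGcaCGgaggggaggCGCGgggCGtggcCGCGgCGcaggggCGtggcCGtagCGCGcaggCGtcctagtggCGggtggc
Kdm4a (chr4:118179994-118180293, minus strand): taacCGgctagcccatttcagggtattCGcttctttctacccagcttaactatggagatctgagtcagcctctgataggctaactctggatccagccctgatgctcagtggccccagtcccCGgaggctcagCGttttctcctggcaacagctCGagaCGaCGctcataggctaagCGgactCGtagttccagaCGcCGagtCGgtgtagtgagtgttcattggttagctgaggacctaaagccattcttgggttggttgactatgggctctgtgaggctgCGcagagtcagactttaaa
Kdm5b (chr1:134559928-134560227, plus strand): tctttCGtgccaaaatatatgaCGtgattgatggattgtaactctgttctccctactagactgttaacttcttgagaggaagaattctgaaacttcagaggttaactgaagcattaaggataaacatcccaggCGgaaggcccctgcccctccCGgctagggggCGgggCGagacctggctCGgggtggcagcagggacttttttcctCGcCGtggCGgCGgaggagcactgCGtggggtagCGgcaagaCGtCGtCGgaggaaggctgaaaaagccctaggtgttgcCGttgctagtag
Tet2 (chr3:133544341-133544640, minus strand): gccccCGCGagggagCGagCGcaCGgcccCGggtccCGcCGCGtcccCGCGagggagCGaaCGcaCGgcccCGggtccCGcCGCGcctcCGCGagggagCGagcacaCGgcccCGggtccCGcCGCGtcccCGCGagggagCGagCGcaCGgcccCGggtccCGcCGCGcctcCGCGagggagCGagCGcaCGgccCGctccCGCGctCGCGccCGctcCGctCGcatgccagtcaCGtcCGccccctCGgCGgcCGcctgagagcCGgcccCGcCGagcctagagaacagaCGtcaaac
Hdac9 (chr12:34917046-34917345, minus strand): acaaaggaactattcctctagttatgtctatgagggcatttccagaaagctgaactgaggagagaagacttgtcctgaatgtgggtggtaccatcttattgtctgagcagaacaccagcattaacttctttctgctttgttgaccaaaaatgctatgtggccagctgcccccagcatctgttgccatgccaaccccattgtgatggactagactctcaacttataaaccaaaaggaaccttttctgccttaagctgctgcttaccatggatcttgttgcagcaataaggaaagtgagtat

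Searched as the letters CG, which read the same on both strands, the promoter of Tet2 held 57 CpGs, that of Ezh1 23, that of Kdm5b 17, that of Kdm4a 13 and that of Hdac9 none. A second Hdac9 entry within the gene held 3. The median was 28 CpGs over the 41 regulators and 14 over 17273 protein-coding genes with an entry, and 35 of the 41 lay above the latter. The domain did not begin at the same place in these genes. The Kdm5b promoter lay wholly under peaks in 9 of 9 libraries. In Ezh1 the nearest covered base downstream lay 0 to 61 bp from the start site in naive, 37 to 107 bp in Th1 and 36 to 143 bp in Th2 libraries. In Kdm4a those distances were 269 to 328, 327 to 397 and 388 to 470 bp, so the start site itself was outside the peaks in all 9 libraries. In Tet2 they were 289 to 373 bp in naive, 0 to 106 bp in Th1 and 58 to 66 bp in Th2 libraries, with the naive libraries farther from the start site than any polarised one.

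Chromatin regulator genes were widely covered. In each library 54 of the 55 had some coverage, against 49.5 to 51.7% of all protein-coding genes. At least 50% of the gene was covered for 50 or 51 regulators in naive, 40 to 43 in Th1 and 40 to 43 in Th2 libraries, where the shares of all genes were 32.6 to 33.5%, 25.9 to 28.1% and 26.3 to 27.2%. Summed over the 55 genes, which span 5047 kb, peaks covered 3357 ± 10.4 kb in naive libraries, 2866 ± 98.7 kb in those of Th1 and 2820 ± 31.9 kb in those of Th2 cells (SD, n = 3). Naive libraries lay between 3349 and 3369 kb and polarised ones between 2785 and 2980 kb, so the groups did not overlap. The widest coverage of a single regulator was that of Arid1b, a DNA-binding subunit of BAF remodelling complexes, with 321, 321 and 324 kb in naive, 282, 274 and 269 kb in Th1, and then 265, 272 and 267 kb in Th2 libraries. The narrowest among covered regulators was that of Bmi1, a PRC1 subunit with a short gene, at 4.32, 4.41 and 4.18 kb in naive, 4.45, 4.18 and 4.75 kb in Th1, and then 3.60, 4.26 and 5.69 kb in Th2 libraries. Arid1b groups separated between naive and polarised cells, whereas the Bmi1 values of the 3 groups overlapped.

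**Figure D1:**
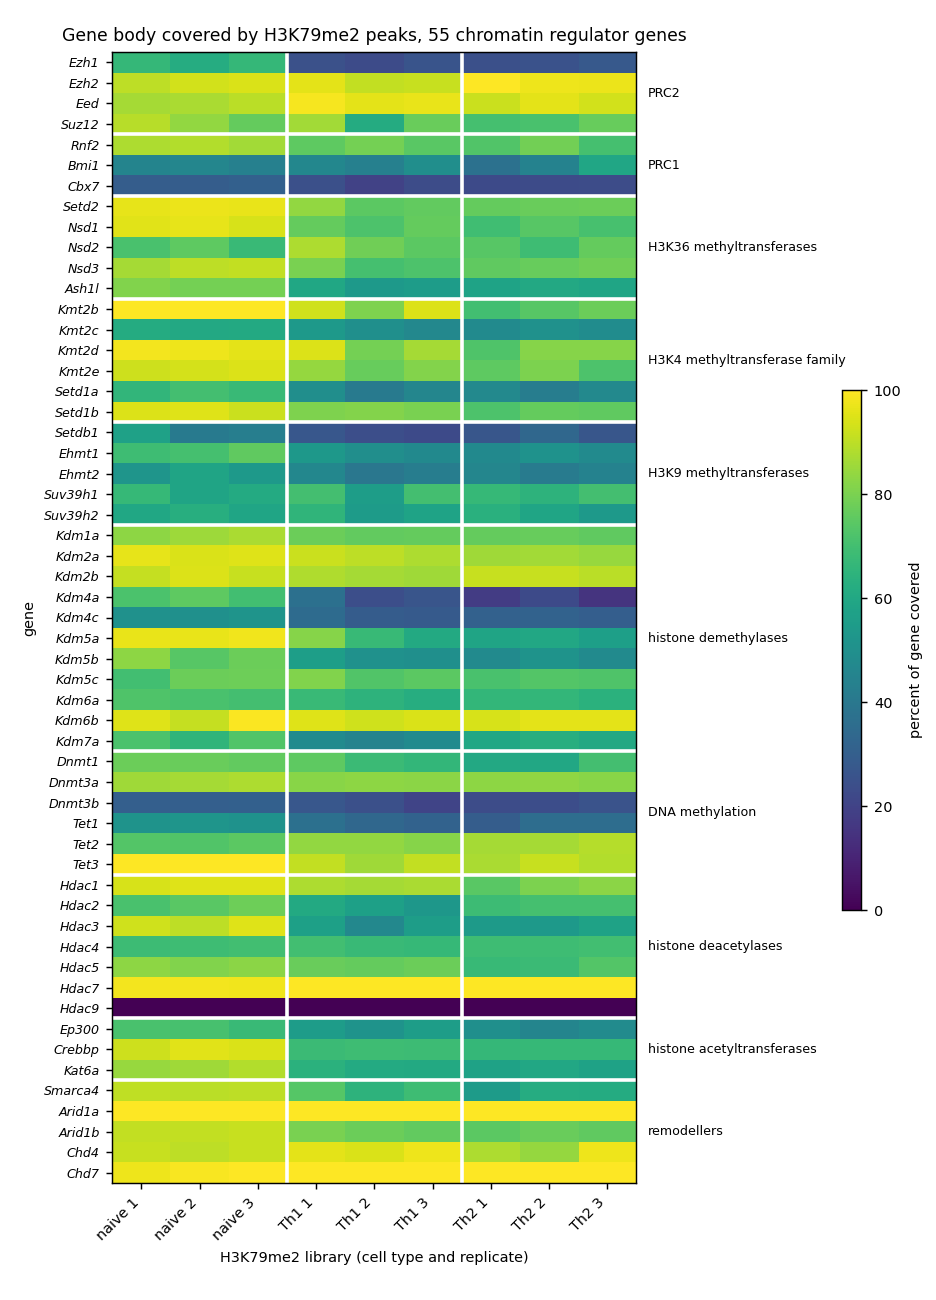
Percent of each gene covered by H3K79me2 peaks for the 55 chromatin regulator genes (rows, grouped by role) in 9 libraries (columns, 3 per cell type). Colour runs from 0 to 100%. Rows such as Arid1a, Chd7 and Hdac7 stay near 100%, Hdac9 is at 0 in each library, and Ezh1, Kdm4a and Hdac3 are brighter in the 3 naive libraries.

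A gene was called when limma gave a Benjamini-Hochberg adjusted p under 0.05 over the 11597 genes and the group means differed by at least 25 percentage points. In Th1 against naive cells 6 of 54 tested regulators were lower (11.1%), where 16.3% of all genes tested were lower, and none was higher, where 4.38% were. In Th2 against naive cells 9 of 54 were lower (16.7%), against 15.4% of all genes, and none was higher, against 4.26%. The call shares of the regulators were thus near or below the background. Since a gene needs coverage to lose it, the same counts were also read among the 5693 genes with a mean of at least 50% over the 9 libraries. There 4 and 7 of 45 regulators (8.89 and 15.6%) were lower, against 15.6 and 14.9% of all such genes. By limma at an unadjusted p under 0.05, 4 regulators were higher in each polarised group (7.41%, against 13.1% of all genes in Th1 and 13.7% in Th2), and 3 (Th1) and 4 (Th2) passed the adjusted threshold (against 11.8 and 12.1% of all genes), all by less than 25 points.

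Smaller reductions were spread over more of the regulators. With a minimum of 10 points, 28 of 54 were lower in Th1 (51.9%, against 37.2% of all genes) and 30 of 54 in Th2 cells (55.6%, against 36.2%). The 3 Th1 values lay below the 3 naive values for 39 of 54 regulators (72.2%, against 52.5%), and the 3 Th2 values did so for 38 (70.4%, against 53.1%). The median difference was -10.7 points in Th1 and -12.1 in Th2 cells, beside medians of -5.55 and -5.50 over all genes tested. In each comparison 43 of 54 differences were negative (79.6%, against 70.2% of all genes in Th1 and 70.1% in Th2). Both comparisons use the same naive libraries. The shares and medians of all genes given here include many genes with little coverage to lose, whereas most regulators were well covered. They were not repeated among well-covered genes, so whether coverage alone accounts for the larger shares and medians of the regulators was not tested. The mean difference over all genes tested was -8.24 points in Th1 and -7.69 in Th2 cells. Centring libraries on their mean over these genes removes that shift from each difference, so that smaller reductions than these change sign. On that scale 31 of 54 differences were negative in Th1 (57.4%, against 43.4% of all genes) and 34 in Th2 cells (63%, against 44.4%). The sign turned for 12 and 9 regulators, of which 3 and 1 passed the adjusted threshold. Only 3 and 4 of the 54 were called, all lower, where 16.5 and 16% of all genes were called in either direction. The share of higher among all calls went from 21.1 to 38.5% in Th1 and from 21.7 to 39.8% in Th2 cells.

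The median reduction was smaller when each list was cut to the same covered length. That cut drops whole peaks, takes most from the naive lists and nothing from the shortest list, Th1 replicate 3 (217 Mb). When the strongest peaks of each library were kept up to the same covered length, 35 of 54 differences were negative in Th1 (64.8%, against 55.7% of all genes) and 37 in Th2 cells (68.5%, against 58.2%), with medians of -4.87 and -7.16 points beside -1.32 and -1.92 over all genes. These values of all genes were likewise not restricted to well-covered genes. The sign turned for 8 regulators in Th1 (Dnmt1, Ehmt1, Kdm6a, Kmt2c, Nsd3, Setdb1, Suv39h2 and Suz12) and for 6 in Th2 cells (Kdm5c, Kdm6a, Kdm7a, Nsd3, Suv39h2 and Suz12). Of these, Nsd3 and Suv39h2 passed the adjusted threshold in the opposite direction in both comparisons. Leaving out weaker peaks (−log10 q below 5) left 44 of 54 differences negative in Th1 (81.5%, against 71.7% of all genes). In Th2 cells 46 were negative (85.2%, against 72.9%). The medians were -11.6 points in each, beside -6.01 and -6.18 over all genes. At that threshold some reductions shrank and others, such as that of Tet1, grew. Of the called regulators, Hdac3 in Th1 and Kdm4a, Kdm5a and Hdac3 in Th2 cells were called with weaker peaks left out, with matched length and with centred libraries alike. With weaker peaks left out and with matched length, Kdm4a had 32.8, 74.5 and 32.4% in naive replicates 1 to 3. Its Th2 means were then 10.3 and 13.5%. Whether these Kdm4a calls hold without naive replicate 2 was not tested.

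**Figure D2:**
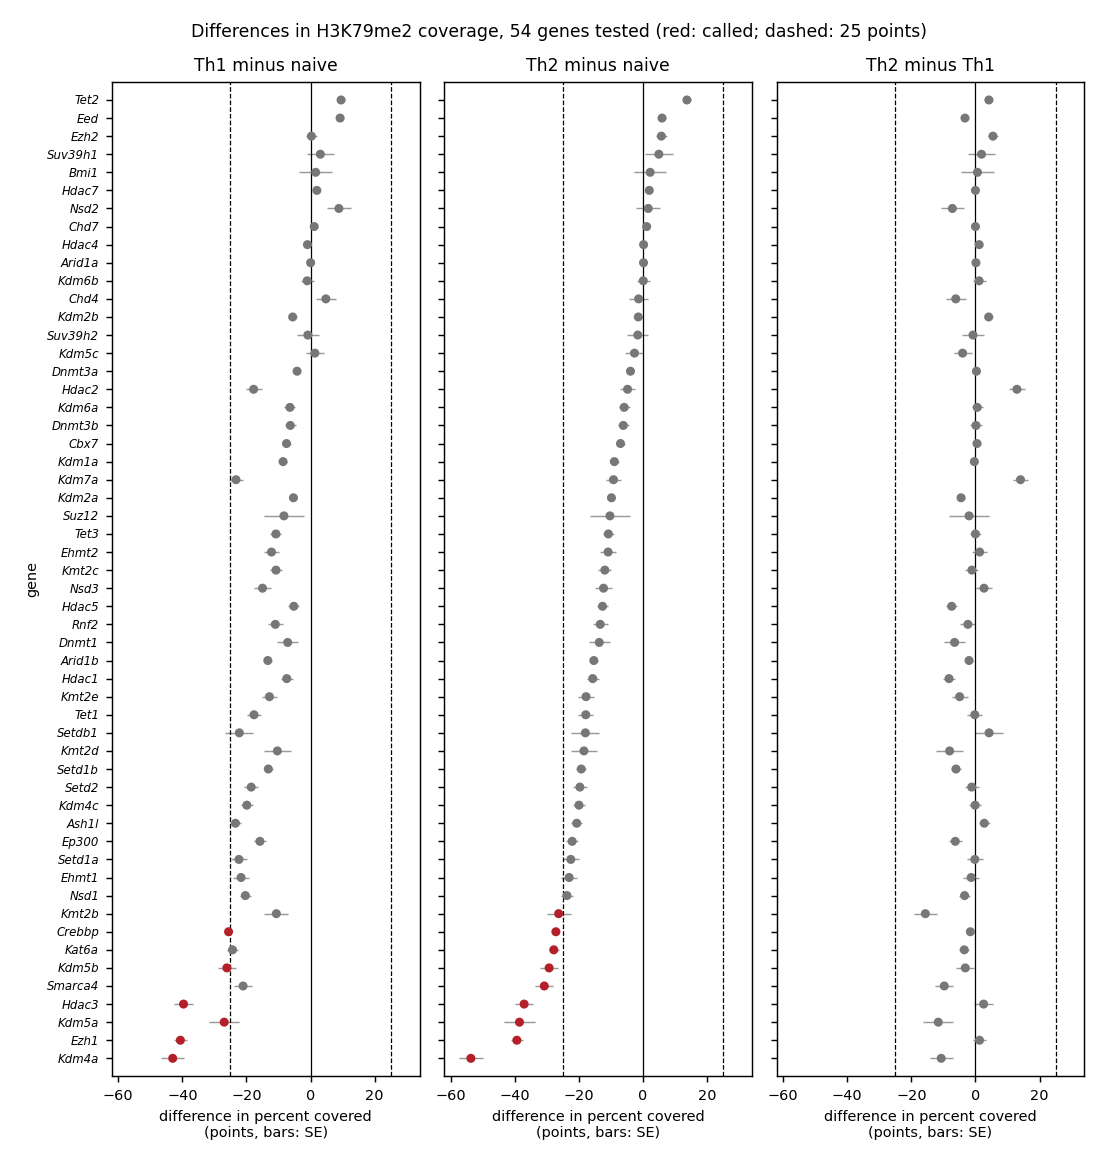
Difference in percent covered for the 54 tested regulators (points, with SE from limma) in Th1 minus naive, Th2 minus naive and Th2 minus Th1, ordered by the Th2 minus naive value. Red marks called genes and dashed lines mark 25 points; 6 genes are called in the first panel, 9 in the second and none in the third.

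Polycomb proteins keep genes silent: PRC2 methylates lysine 27 of histone H3 through its catalytic subunit EZH2 or EZH1, and PRC1 ubiquitinates histone H2A. Of 4 PRC2 genes, 1 was lower in each polarised group. Ezh1 (chr11:101191115-101226463) was covered at 66.8, 62.0 and 66.8% in naive, 24.8, 22.9 and 26.1% in Th1 and 24.4, 25.3 and 27.9% in Th2 libraries. The 6 polarised values lay far below the naive ones. Ezh1 fell by 40.6 ± 1.92 points in Th1 (SE, adjusted p = 1.7e-06) and by 39.3 ± 1.92 points in Th2 cells (adjusted p = 2.23e-06). The naive libraries had 5 or 6 peaks in Ezh1 and the polarised ones 1 or 2, the longest of which, 8.1 to 9.5 kb, lay at the 5′ end. The naive peaks farther into the gene were weak: when only peaks with a deposited −log10 q of at least 5 were kept, Ezh1 had 31.0, 32.3 and 34.9% in naive libraries, and the differences shrank to -8.13 in Th1 and -7.16 points in Th2 cells, which ended both calls.

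Ezh2, the PRC2 enzyme of dividing cells, showed no such reduction. It was covered at 90.2 to 94.3% in naive, 90.9 to 95.9% in Th1 and 97.3 to 100% in Th2 libraries, a difference of 0.26 ± 1.68 points in Th1 (adjusted p = 0.936) and 5.71 ± 1.68 in Th2 cells (adjusted p = 0.0199), under the 25-point minimum. Eed, the subunit that binds trimethylated lysine 27, was covered at 86.4 to 89.6% in naive, 95.8 to 98.5% in Th1 and 92.1 to 95.8% in Th2 libraries. Its groups did not overlap between naive and polarised cells, with differences of 9.20 and 5.93 points (adjusted p = 0.000703 and 0.00677). Suz12, a core subunit, varied widely between libraries of a group, from 76.5 to 89.3% in naive and from 61.6 to 86.1% in Th1 cells, and its differences of -8.32 and -10.3 points did not pass the test and turned to 13.4 and 12.3 with matched covered length. Of the 3 PRC1 genes none was called. Rnf2, which encodes the RING1B ubiquitin ligase, had 86.0 to 88.6% in naive, 74.5 to 79.3% in Th1 and 70.3 to 78.7% in Th2 libraries (differences -11.0 and -13.4 points). Cbx7 had 29.6 to 30.7% in naive cells and 19.5 to 24.5% in polarised ones, and shares its annotated span with Apobec3, so its value is uncertain. Bmi1 percentages ran from 37.4 to 59.2% over the 9 libraries.

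Methyltransferases of lysine 36 act on transcribed gene bodies: SETD2 places the trimethyl mark, and NSD1, NSD2, NSD3 and ASH1L the dimethyl mark. None of the 5 genes was called, and the median difference was -18.5 points in Th1 and -19.7 in Th2 cells. Setd2 was covered at 96.4 to 97.1% in naive, 74.7 to 83.9% in Th1 and 76.5 to 77.5% in Th2 libraries. A single peak spanned it in each naive library (83.0 to 83.6 kb), while Th1 libraries had 8 to 11 peaks and Th2 libraries 6 to 11, the longest 28.9 to 29.5 kb. The Setd2 domain was thus interrupted in the polarised cells. Nsd1 had 95.4, 96.4 and 94.0% in naive, 76.3, 72.0 and 76.5% in Th1 and 69.5, 74.2 and 70.9% in Th2 libraries, with differences of -20.3 ± 1.75 and -23.7 ± 1.75 points (adjusted p = 3.64e-05 and 1.84e-05), short of 25 points. Its groups did not overlap between naive and polarised cells, and with Th2 replicate 2 left out the Th2 difference reached -25.1 points. Ash1l had 81.0, 79 and 79.1% in naive, 59.5, 54.1 and 55.3% in Th1 and 57.9, 60.4 and 58.7% in Th2 libraries (differences -23.4 and -20.7 points), and overlaps Dap3. Nsd3 lay between 86.6 and 90.9% in naive and between 70.5 and 79.9% in polarised libraries (differences -15.0 and -12.3 points). With matched covered length the order of Nsd3 turned, at 59.7 to 61.2% in naive and 69.0 to 72.1% in polarised libraries (differences 9.73 and 9.91 points, adjusted p = 0.000575 and 0.000519), and with weaker peaks left out its differences were -0.74 and -0.14 points. Nsd2, which overlaps Nelfa, went the other way without passing the test, with 67.8 to 75.3% in naive, 74.8 to 87.6% in Th1 and 69.0 to 76.2% in Th2 libraries (8.83 points in Th1, adjusted p = 0.0725).

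The KMT2 and SETD1 families contain the methyltransferases of lysine 4, the mark of promoters and enhancers. All 6 measured genes had negative differences in both comparisons, with medians of -11.8 and -18.8 points, and 1 was called, in Th2 cells. Kmt2b (chr7:30568855-30589056) was covered at 100% in all 3 naive libraries, at 92.7, 80.6 and 94.7% in Th1 and at 69.7, 73.9 and 77.4% in Th2 libraries. The 3 groups did not overlap. Kmt2b fell by 26.3 ± 3.69 points in Th2 cells (adjusted p = 0.000526), or by 24.3 points without Th2 replicate 1, which ended the call, and the Th1 difference was -10.7 ± 3.69 points (adjusted p = 0.0379). Setd1a, which encodes a catalytic subunit of COMPASS, had 66.0, 70.2 and 67.7% in naive, 49.6, 41.3 and 46.0% in Th1 and 47.0, 42.4 and 46.9% in Th2 libraries (differences -22.3 and -22.5 points, adjusted p = 0.000169 and 0.000167). Its naive values lay above all polarised ones. Setd1b had 91.9 to 95.1% in naive, 79.9 to 81.6% in Th1 and 71.9 to 76.2% in Th2 libraries. Kmt2c, the longest gene of the family, had 60.2 to 61.5%, 46.8 to 53.8% and 47.7 to 50.4%. Kmt2d had 95.9 to 98.3%, 79.2 to 94.9% and 72.6 to 81.9%, and Kmt2e, which overlaps Srpk2, had 92.5 to 94.7%, 76.9 to 84.1% and 72.2 to 80.2%.

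Lysine 9 methylation marks silent chromatin. None of the 5 genes of its methyltransferases was called. Ehmt1, which with Ehmt2 encodes the GLP and G9a pair, had 68.8, 70.7 and 75.6% in naive, 53.3, 49.3 and 47.4% in Th1 and 47.4, 50.8 and 47.8% in Th2 libraries, with differences of -21.7 ± 2.41 and -23.0 ± 2.41 points (adjusted p = 0.000145 and 0.000108). The groups did not overlap between naive and polarised cells. With covered length matched, the Ehmt1 difference turned to 4.95 points in Th1 and shrank to -1.88 in Th2 cells (adjusted p = 0.198 and 0.633). Ehmt2 had 52.3 to 58.4% in naive and 39.6 to 46.2% in polarised libraries. Setdb1, which overlaps Cers2, spread from 40.9 to 57.1% in naive cells and lay between 22.5 and 33.4% in polarised ones. Suv39h1 and Suv39h2, the methyltransferases of pericentric heterochromatin, did not pass the test in any comparison, and Suv39h2 shares its span with Dclre1c. Suv39h1 ranged from 55.6 to 70.2% and Suv39h2 from 54.1 to 65.4% over the 9 libraries.

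Histone demethylase genes held 3 of the called regulators in each polarised group, out of 11, and the values within the family were uneven. Kdm4a (chr4:118136957-118180090), a demethylase of trimethylated lysines 9 and 36, was covered at 71.6, 75.2 and 69.6% in naive, 36.8, 24.1 and 26.4% in Th1 and 17.9, 22.3 and 15.2% in Th2 libraries. It had the largest reduction of the 55 genes in percent, and the groups of naive, Th1 and Th2 libraries did not overlap. Kdm4a fell by 43.0 ± 3.65 points in Th1 (adjusted p = 3.35e-05) and by 53.7 ± 3.65 points in Th2 cells (adjusted p = 1.21e-05). Naive libraries had 2 or 3 peaks in the gene, the longest 15.0 to 32.2 kb, and polarised libraries 5 to 9, the longest 2.9 to 9.5 kb. The 3′ end of Kdm4a was nearly bare in naive cells too: divided into 20 equal bins, the last 5 had means of 0 to 2.86%. With covered length matched between libraries the Th1 difference was -20.6 points (adjusted p = 0.157) and no longer called.

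Kdm5a and Kdm5b encode demethylases of lysine 4. Kdm5a (chr6:120364099-120444574) was covered at 96.6, 96.5 and 97.7% in naive, 81.8, 67.3 and 60.9% in Th1 and 58.6, 60.1 and 56.5% in Th2 libraries. The Th1 libraries spread widely between the naive and the Th2 values. Kdm5a fell by 26.9 ± 4.70 points in Th1 (adjusted p = 0.00161), or by 22.4 points without Th1 replicate 3, which ended that call, and by 38.5 ± 4.70 points in Th2 cells (adjusted p = 0.000247). It had 2 or 3 peaks in naive and 10 to 16 in polarised libraries, and it overlaps Ccdc77, so its value is uncertain. Kdm5b (chr1:134560178-134632878), which overlaps Mgat4e, was covered at 83.0, 74.2 and 77.6% in naive, 56.1, 50.6 and 49.7% in Th1 and 47.8, 51.4 and 47.7% in Th2 libraries. The polarised values lay well below the lowest naive one. Kdm5b fell by 26.1 ± 2.77 points in Th1 (adjusted p = 0.000113) and by 29.3 ± 2.77 points in Th2 cells (adjusted p = 6.48e-05). The Th1 call ended without naive replicate 1 (-23.8 points) or Th1 replicate 3 (-24.9 points). With weaker peaks (−log10 q below 5) left out, the differences were -6.18 and -7.48 points and neither was called. Kdm5c, on the X chromosome, ranged from 69.5 to 80.9% and did not pass the test.

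Kdm7a, a demethylase of lysines 9 and 27, had the largest positive difference of the regulators between Th2 and Th1 cells. It was covered at 71.9, 65.6 and 72.8% in naive, 48.0, 44.6 and 47.9% in Th1 and 59.4, 62.7 and 60.5% in Th2 libraries, so that the 3 groups did not overlap and Th2 lay between. The Th1 difference from naive was -23.3 ± 2.29 points (adjusted p = 7.46e-05), short of the minimum, though -25.5 points without naive replicate 2. The Th2 difference from naive was -9.21 ± 2.29 points (adjusted p = 0.00944), and turned to 5.98 points (adjusted p = 0.0623) with matched covered length, where Th2 lay highest (58.6%, against 52.6% in naive and 46.2% in Th1). Kdm4c had 50.4, 50 and 51.7% in naive, 35.0, 29.3 and 28.2% in Th1 and 31.1, 31.4 and 29.7% in Th2 libraries (differences -19.9 and -20.0 points), with the naive values above all others. In kb, Kdm4c, a gene of 163 kb, went from a mean of 82.8 in naive to 50.3 in Th1 and 50.2 in Th2 cells, where Kdm4a, a gene of 43.1 kb, went from 31.1 to 12.6 and 7.95. The other demethylase genes moved little. Kdm1a, which overlaps Luzp1 and encodes LSD1, had 83.0 to 87.3% in naive and 75.7 to 77.6% in polarised libraries. Kdm2a, which overlaps 9430078G10Rik, had 94.5 to 96.1%, 87.6 to 92.0% and 84.4 to 86.1%, and Kdm2b ranged from 85.7 to 94.6%. Kdm6a (UTX) and Kdm6b (JMJD3) remove methyl groups from lysine 27, the mark set by PRC2. Kdm6a had 70.2 to 72.7% in naive and 62.5 to 67.9% in polarised libraries (-6.45 points in Th1, adjusted p = 0.0124). Kdm6b had 91.0 to 99.6% in naive and 92.8 to 96.1% in polarised ones, and its differences did not pass the test.

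DNMT enzymes methylate cytosines of CpG dinucleotides and TET enzymes oxidise the methyl group. None of their 6 genes was called. Tet2 was covered at 73.3, 72.7 and 74.7% in naive, 83.7, 83.8 and 81.8% in Th1 and 86.5, 86.6 and 88.8% in Th2 libraries, a rank order of groups without overlap. It was chosen for mention after its values were seen. The differences were 9.50 ± 1.14 points in Th1 (adjusted p = 0.000219), 13.7 ± 1.14 points in Th2 cells (adjusted p = 3.37e-05) and 4.19 ± 1.14 points between Th2 and Th1 (adjusted p = 0.0481). Tet1 had 50.8 to 52.3% in naive, 31.4 to 36.9% in Th1 and 29.3 to 35.9% in Th2 libraries (differences -17.6 and -17.9 points). With weaker peaks (−log10 q below 5) left out, Tet1 had 49.8 to 51.1% in naive libraries. Its Th1 libraries then had 35.3, 11.7 and 0%, and each Th2 library had 0%. Tet3 was fully covered in the naive libraries and had 85.7 to 90.9% in Th1 and 87.5 to 91.8% in Th2 libraries (-10.8 points in each). The 3 TET genes thus did not share a direction. Among the methyltransferases, Dnmt1, the maintenance enzyme, had 76.1 to 77.7%, 66.3 to 75.2% and 59.8 to 70.1%. Dnmt3a, a de novo enzyme, had 85.9 to 87.7% in naive and 82.1 to 83.4% in polarised libraries. Dnmt3b, the other de novo enzyme, had 30.1 to 30.6% in naive and 20.4 to 27.0% in polarised libraries, with coverage in the 5′ 50% of the gene alone.

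**Figure D3:**
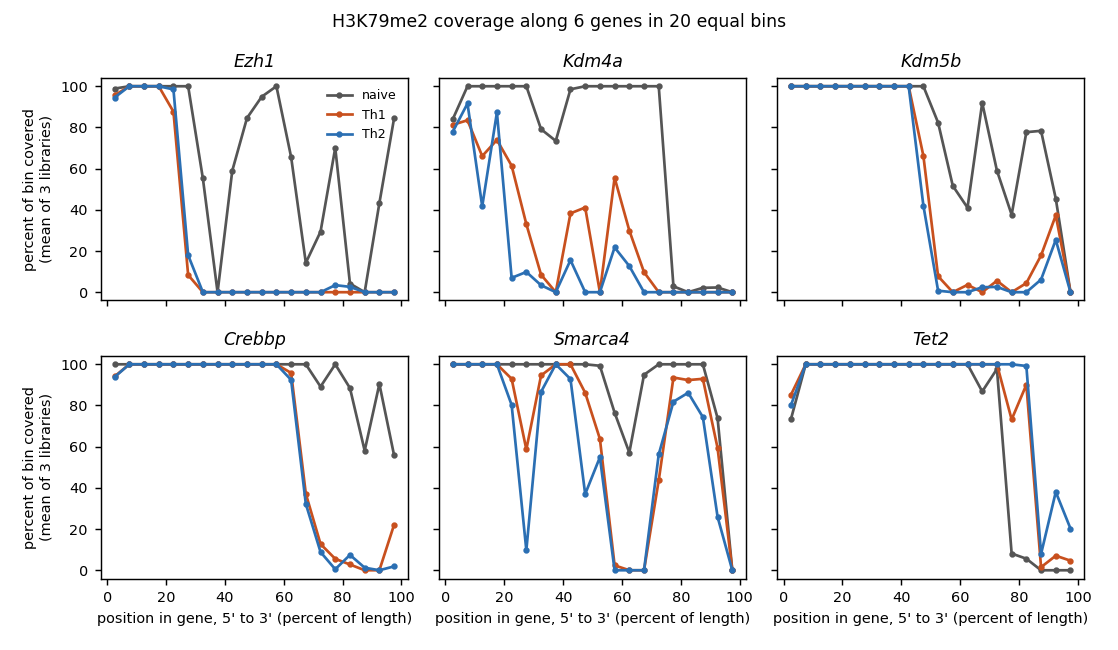
Percent of each of 20 equal bins covered by peaks along 6 genes, from the 5′ to the 3′ end (mean of 3 libraries per group; grey naive, orange Th1, blue Th2). Ezh1, Kdm4a, Kdm5b, Crebbp and Smarca4 keep more coverage in their 3′ part in naive cells, and Tet2 reaches farther in Th1 and Th2 cells.

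Histone deacetylases remove acetyl groups from histones. Of 7 genes 1 was called, in both polarised groups. Hdac3 (chr18:37936971-37955015), the catalytic subunit of the NCoR and SMRT corepressor complexes, was covered at 92.6, 90.2 and 95.0% in naive, 56.8, 46.5 and 55.6% in Th1 and 54.7, 54.2 and 57.7% in Th2 libraries. The naive values lay far above the rest. Hdac3 fell by 39.6 ± 2.90 points in Th1 (adjusted p = 1.56e-05) and by 37.1 ± 2.90 points in Th2 cells (adjusted p = 2.43e-05). Each naive library had a single peak of 16.3 to 17.1 kb in Hdac3, and the polarised libraries had 2 to 4 peaks, the longest 7.0 to 9.2 kb. Hdac3 kept its call with weaker peaks (−log10 q below 5) left out, with covered length matched, with libraries centred and with each library left out in turn, but not on the log2(kb + 1) scale, where its differences of -0.75 and -0.68 fell short of the minimum of 1. Hdac2, a class I partner of Hdac1 in the Sin3, NuRD and CoREST complexes, had 71.2, 74.6 and 78.0% in naive, 60.7, 56.9 and 52.9% in Th1 and 68.5, 70.4 and 70.4% in Th2 libraries. Its Th1 values lay below all others. Hdac1 itself had 94.0 to 95.1% in naive, 86.6 to 87.9% in Th1 and 74.6 to 82.5% in Th2 libraries, with Th2 lowest, the opposite order of the polarised groups to that of Hdac2.

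The class IIa genes Hdac4, Hdac5, Hdac7 and Hdac9 encode deacetylases that shuttle between nucleus and cytoplasm. Hdac4 lay between 67.0 and 69.8% in the 9 libraries. Hdac5 had 81.1 to 82.9%, 76.4 to 77.7% and 67.2 to 73.3%. Hdac7, which is abundant in T cells and overlaps Slc48a1, had 98.0 to 98.1% in naive libraries and 100% in all 6 polarised ones, a difference of 1.95 ± 0.50 points in both comparisons (adjusted p = 0.0109 and 0.011). Hdac9, with the longest annotation of the 55 at 870 kb, was at 0 in all 9 libraries. No comparison could be made for it.

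Acetyltransferases open chromatin and recruit bromodomain proteins. Of their 3 genes 1 was lower in Th1 and 2 in Th2 cells, and the median differences, -24.3 and -27.2 points, were the lowest among the roles. Crebbp (CBP, chr16:4081334-4213957), a coactivator that acetylates lysine 27 of H3, was covered at 92.4, 95.5 and 94.4% in naive, 68.1, 68.8 and 68.7% in Th1 and 66.6, 67.1 and 67.1% in Th2 libraries. The libraries of a group lay close together, and the naive group stood apart. Crebbp fell by 25.6 ± 1.09 points in Th1 (adjusted p = 9.8e-07), or by 24.9 points without naive replicate 2, which ended that call, and by 27.2 ± 1.09 points in Th2 cells (adjusted p = 8.13e-07). Its longest peak was 98.1 to 112 kb in naive and 85.1 to 85.8 kb in polarised libraries. With weaker peaks (−log10 q below 5) left out, the differences were -13.1 and -13.3 points, no longer called. Kat6a (MOZ, chr8:22859442-22943259) had 84.5, 85.8 and 88.4% in naive, 63.9, 61.2 and 60.6% in Th1 and 57.5, 60.0 and 57.7% in Th2 libraries. The 3 groups did not overlap. Kat6a fell by 27.8 ± 1.59 points in Th2 cells (adjusted p = 4.96e-06), or 11.6 points with weaker peaks (−log10 q below 5) left out, which ended the call. Its Th1 difference was -24.3 ± 1.59 points (adjusted p = 8.65e-06), just short of the 25-point minimum. Ep300 (p300), the paralogue of Crebbp, had 67.9 to 71.3% in naive, 51.5 to 55.7% in Th1 and 45.4 to 49.9% in Th2 libraries (differences -15.8 and -22.1 points), again without overlap. With covered length matched the Ep300 differences were -1.78 and -7.16 points.

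Remodellers use ATP to move nucleosomes, and 1 of their 5 genes was called, in Th2 cells. Smarca4 (chr9:21616106-21704230) encodes BRG1, the motor of BAF complexes. It was covered at 90.3, 89.7 and 90.2% in naive, 73.8, 64.5 and 68.8% in Th1 and 54.7, 61.7 and 61.4% in Th2 libraries, again without overlap. Smarca4 fell by 30.8 ± 2.75 points in Th2 cells (adjusted p = 4.79e-05), and its Th1 difference was -21.1 ± 2.75 points (adjusted p = 0.000343), under the minimum. Naive libraries had 2 to 4 peaks, the longest 48.4 to 52.0 kb, and Th2 libraries 10 to 12, the longest 20.2 to 22.5 kb. Arid1b had 90.9, 90.9 and 91.7% in naive, 79.8, 77.6 and 76.1% in Th1 and 74.9, 77.0 and 75.6% in Th2 libraries (differences -13.3 and -15.3 points). Its longest peak stayed at 151 to 152 kb in all 9 libraries. The position of that peak was not compared between libraries. Arid1a, its paralogue, was a single peak of 77.6 to 77.8 kb in each of the 9 libraries and covered 99.7 to 100% of the gene. By the authors' deposited fold enrichment, that Arid1a peak stood in the top 0.11 to 0.77% of peaks of its own list. Chd7, of the CHD family of remodellers, was spanned by 1 peak of 178 kb in each polarised library, where the naive libraries had 1 to 5 peaks and at least 97.6%. Chd4, the NuRD remodeller, had 90.1 to 91.7% in naive, 94.3 to 97.5% in Th1 and 84.1 to 97.3% in Th2 libraries, and did not pass the test.

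The differences from naive cells were larger towards the 3′ end. The gene strand was known for 41 of the 55, of which 40 were tested, and the 5′ and the 3′ 50% of each gene were measured apart. In the 5′ part the median difference of these 40 genes was -0.86 points in Th1 and -1.87 in Th2 cells, and 3 genes (7.5%) were at least 25 points lower in each, against 16.1 and 14.5% of 9384 genes tested with a known strand. In the 3′ part the medians were -13.5 and -15.4 points and 12 genes (30%) were at least 25 points lower in each, against 21.3% of the 9384 genes in both. Coverage itself bears on this count, so it was repeated with a mean of at least 50% over the 9 libraries. That left 31 regulators, without Ezh1 and Kdm4a, with medians of -0.77 and -1.05 points in the 5′ and -12.5 and -16.8 in the 3′ part. There 8 and 9 (25.8 and 29.0%) were at least 25 points lower in the 3′ part, against 28.2 and 29.1% of 4647 genes, whose medians were -0.42 and -0.28 in the 5′ and -8.77 and -9.69 in the 3′ part. The larger difference in the 3′ part was thus also present over all genes.

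Crebbp kept 99.4% of its 5′ part in both polarised groups (100% in naive), while its 3′ part went from 88.2 ± 3.16 to 37.6 ± 0.75% (Th1) and 34.5 ± 0.43% (Th2; SD, n = 3). Kdm5b did likewise, with a 3′ part of 56.5 ± 8.85, 7.65 ± 3.94 and 3.73 ± 1.75%, and 5′ values of 100, 96.6 and 94.2%. Both genes thus kept a 5′ domain and differed past it when all peaks were used. With weaker peaks (−log10 q below 5) left out, the group means over the whole gene lay closer together. They were 77.6, 64.5 and 64.3% in Crebbp and 54.1, 47.9 and 46.6% in Kdm5b for naive, Th1 and Th2 cells. The 5′ and 3′ parts were not measured apart at that threshold. Smarca4 went from 80.2 to 44.8 and 37.9% in its 3′ part. Ep300 went from 40.0 to 9.20 and 2.09%, and Setd1a from 38.6 to 3.24 and 3.19%. Ezh1 and Kdm4a differed in both parts: the 5′ part of Ezh1 had 79.8, 49.2 and 51.1% and its 3′ part 50.6, 0 and 0.60%, and the 5′ part of Kdm4a had 93.5, 48.7 and 33.4% and its 3′ part 50.7, 9.52 and 3.44%. Tet2 was the mirror case, with 97.3, 98.5 and 98.0% in its 5′ part and 49.8 ± 2.14, 67.7 ± 1.88 and 76.5 ± 2.60% in its 3′ part. In Kdm7a the 3′ part had 40.8% in naive, 2.31% in Th1 and 24.0% in Th2 libraries.

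The first 5 kb of the genes was mostly covered. In that window 25 of the 41 genes had at least 90% covered in each of the 9 libraries, and 5 (Cbx7, Kdm4c, Tet1, Hdac4 and Hdac9) had none in any, although all but Hdac9 were covered farther in. Shares over all genes were not taken for these counts, so they have no background here. The nearest promoter entries of Cbx7 and Hdac4 lay 38497 and 15361 bp inside the annotated 5′ end, those of Kdm4c and Tet1 0 and 145 bp. The Cbx7 promoter was fully covered in all 9 libraries. In Hdac4 the nearest covered base lay 123 to 437 bp past the start site of that entry. In 25 of the 41 the values varied between libraries. Of these limma called 0 against naive cells, where 21.6% (Th1) and 19.5% (Th2) of 7111 genes were called. At an unadjusted p under 0.05 there were 8 and 7, against 47.2 and 45.5% of all genes, and at an adjusted p under 0.05 there were 2 (Kmt2d and Crebbp) and 4 (those and Hdac5 and Dnmt3a), against 38.2 and 36.3%. Kmt2d had 100% in naive, 80.5% in Th1 and 84.0% in Th2 libraries in the window, and Crebbp 100, 92.2 and 91.8%. Dnmt3a, whose differences from naive over the whole gene were -4.22 and -3.91 points, had 51.8, 50.7 and 38.8% in naive, 31.7, 49.8 and 33.7% in Th1 and 81.2, 61.8 and 64.0% in Th2 libraries. It was the 1 regulator called in the window between Th2 and Th1 cells (30.6 ± 7.15 points, adjusted p = 0.0452), where 4.82% of all genes were called and 7.62% passed the adjusted threshold. The Dnmt3a window ends before its nearest promoter entry, whose start site lies 5421 bp inside the annotated 5′ end. That promoter was fully covered in all 9 libraries. In the 5-kb window Ezh1 had 99.6, 98.4 and 98.1% and Kdm4a 93.1, 80.2 and 81.3% in naive, Th1 and Th2 cells.

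**Figure D4:**
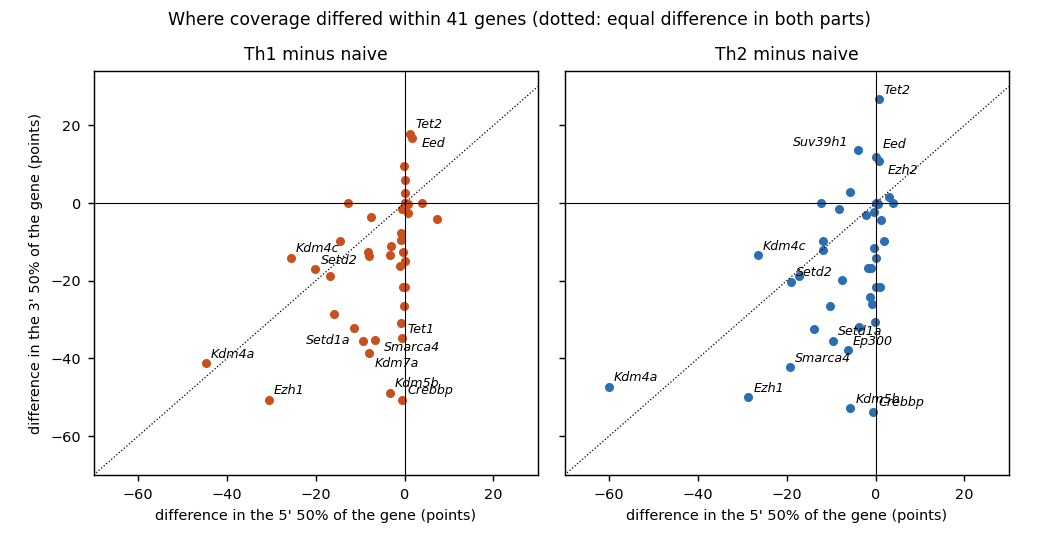
Difference from naive in the 5′ 50% of a gene (x axis, points) against that in the 3′ 50% (y axis, points) for the 41 regulators with a known strand, in Th1 and Th2 cells. Most points lie below the dotted line of equal differences near x = 0; Crebbp and Kdm5b are lowest there, Kdm4a and Ezh1 lie to the left, and Tet2 is highest.

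Between the polarised groups, 0 of 54 regulators were called by limma in either direction, where 1.56% of all genes tested were lower and 2.08% higher in Th2 than in Th1 cells. At an unadjusted p under 0.05 the count was 15 (5 higher, 10 lower), 27.8% against 27.2% of all genes, and 7 passed the adjusted threshold with smaller differences, 13% against 15.2% of all genes. Higher in Th2 were Kdm7a by 14.1 ± 2.29 points (adjusted p = 0.00584), Hdac2 by 12.9 ± 2.46 points (adjusted p = 0.0115) and Tet2. Lower in Th2 were Kmt2b, by 15.6 points (adjusted p = 0.0275), Hdac1, Hdac5 and Setd1b, by 8.24, 7.41 and 6.08 points (adjusted p = 0.0242, 0.0237 and 0.0317). Kdm5a and Smarca4 had differences of -11.6 and -9.73 points (adjusted p = 0.162 and 0.0547). The median over the 54 genes was -0.56 points, beside 0.018 over all genes. Kmt2b and Hdac2 depended on the peak threshold: with weaker peaks (−log10 q below 5) left out both were called, at -28.4 and 27.9 points (adjusted p = 0.0284 and 0.000211).

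Another 91 chromatin genes, the partners and paralogues of those above, give the wider setting. Of 86 tested, 24 were lower (27.9%, against 16.3% of all genes) and 3 higher (3.49%, against 4.38%) in Th1, and 26 lower (30.2%, against 15.4%) and 2 higher (2.33%, against 4.26%) in Th2 cells. A comparison with genes of similar coverage was not made for these shares. Kdm3b, a demethylase of lysine 9, fell by 58.6 ± 2.53 points in Th1 and by 56.0 ± 2.53 in Th2 cells (adjusted p = 1.03e-06 and 1.5e-06), from 91.3 ± 2.31% in naive cells (SD, n = 3). Sin3a, a corepressor scaffold, fell by 50.9 and 51.1 points from 91.2%, and the BAF subunits Smarcc2 and Smarcd1 by 42.7 and 43.0 points in Th1 cells and by 50.5 and 43.1 points in Th2 cells. Pbrm1, which overlaps Smim4, fell by 41.6 points in Th1, and Pcgf1, a PRC1 subunit with a short gene, by 48.5 points in Th2 cells. Pcgf2 (MEL18), a paralogue of Bmi1, rose from 17.2 ± 1.56% in naive to 74.8 ± 3.22% in Th1 and 76.1 ± 4.70% in Th2 cells (differences 57.6 and 58.9 points, adjusted p = 1.81e-06 and 1.8e-06). No member of the 55 genes had a gain of that size. Between Th2 and Th1 cells 1 of these genes was called (1.16%, against 2.08% of all genes called higher): Cbx2, a PRC1 subunit, rose from 60.6 ± 6.58 to 88.7 ± 6.55% (28.1 ± 4.07 points, adjusted p = 0.00347). The next in size were Hdac10 (21.1 points, adjusted p = 0.0601), Kdm1b (17.9 points, uncertain through overlap with Dek), Ring1 (15.0 points), Smarce1 (14.1 points) and Chd3 (-12.4 points), none of which met both criteria.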

How the data were processed

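Each of the 9 H3K79me2 libraries has its own list of broad peaks, and inputs were not analysed here. The submitters' processing notes name MACS2, Bowtie2, SAMtools and Picard, and the build mm10. Their versions and settings, and whether inputs entered peak calling, are not given in the sources used here. Every peak carries the authors' positions, fold enrichment (a ratio), −log10 p and −log10 q, all of which were deposited per peak within its own list and served to rank or filter it. Read depth cannot be derived, and intervals for counting error were not set. Peaks of a library were merged and laid over GRCm38.p6 genes (RefSeq). Coordinates are 1-based. No pair of libraries shared more than 1 identical peak.

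Percent covered was fitted with limma 3.58.1 in R 4.3.3 (lmFit, and eBayes with a variance trend) over all 9 libraries (6 residual degrees of freedom). A p came from this fit, with Benjamini-Hochberg adjustment over 11597 genes. Tested on simulated Th1 against naive data with 11597 genes, the fit called 86% of 50 genes raised by 30 points, 80% of 50 lowered by 30, 94% of 50 raised by 50, 96% of 50 lowered by 50, and 0.026% of 11397 unmoved genes. The simulated data held no shift over all genes, unlike the real Th1 libraries, so these rates do not cover calls under such a shift. The strand came from promoter entries, for 79.9% of genes. Genes overlapping another protein-coding gene are named as uncertain.

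The members and lists were chosen with earlier results of these data known. Values per library are given for genes called, for the 3 with the largest differences in percent and in kb per comparison among those not called, and for the widest and narrowest, with up to 6 other chromatin genes per comparison. A marker gene is not reported here.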

Additional observations from a re-analysis of the deposited data

How the results depend on the processing

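The counts of regulators called against naive cells depended on how weak peaks and covered length were handled. The Th1 count of 6 was 10 with peaks of −log10 q of at least 5, 4 with covered length matched at 217 Mb per library (2 lower and 2 higher), 3 with libraries centred, 0 in the 5-kb window, 2 on the log2(kb + 1) scale with a minimum of 1, and 28 with a minimum of 10 points. The Th2 count of 9 was 11, 7 (6 lower and 1 higher), 4, 0, 2 and 31 under the same settings, the last with 30 lower and Tet2 higher. The Th2 against Th1 count of 0 was 2 with the stricter peaks, 1 with matched length (Kmt2b, -26.9 points), 1 in the window (Dnmt3a, higher) and 3 with 10 points. In the main setting 20.7% of all genes were called in Th1, then 22, 17.1, 16.5, 21.6 and 19.3% in the order above. For Th2 cells the shares were 19.6%, then 21.6, 17.2, 16, 19.5 and 17.8%. Between Th2 and Th1 cells they were 3.64%, and 3.2, 3.62 and 4.82% with stricter peaks, matched length and the window. With 10 points, 37.2% (Th1) and 36.2% (Th2) of all genes were lower. The window held fewer genes, and the cause of the other moves was not tested. The higher calls with matched length were Suv39h2 (0% in naive, 57.5% in Th1, 55.6% in Th2) and, in Th1, Kdm5c (45.9 and 73.9%). The differences of Arid1b turned positive in the window, at 11.4 points in both polarised groups. Leaving out each library in turn gave 4 to 8 calls in Th1, 8 to 10 in Th2 and 0 in Th2 against Th1, the lowest Th1 count without Th1 replicate 3. Testing all genes, fitting only the groups compared and dropping the variance trend left these 3 counts unchanged. The differences in covered length, -53.6, -39.6 and 14.0 Mb, were -49.3, -47.1 and 2.14 Mb with stricter peaks, and -60.5 to -49.0, -44.4 to -35.6 and 9.23 to 20.9 Mb with each library left out. The lower bound of the last range came without Th2 replicate 3.

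The replicate block left the counts at 6, 9 and 0 and changed no call of a named regulator. Deviations of same-numbered libraries correlated at -0.074 to 0.0015 over 9 pairs, against -0.026 to 0.070 over 18 others. Same-numbered libraries were thus no more alike than others. With 3 libraries per group, this check cannot show whether those of the same number were prepared together.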
